A study of Arabidopsis thaliana with 4 samples.

Results

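Plates 37 to 51 of the TA series hold a long stretch of neighbouring tiles at which the H3K56ac log ratio was low in Arabidopsis thaliana seedlings. A tile here is 1 spotted fragment of a tiling array, and its ID gives a series, a plate, a row from A to H and a column from 1 to 12. All TA tiles of these 15 plates with a value on every array were taken, which gave 1351 of the 21707 tiles measured (6.22%), or 14.5% of the 9304 TA tiles. One further ID, TA46G12, was listed without a value. The plates were picked because their medians were low in these same measurements. Levels, spreads and counts are therefore given as descriptions, and none of them is a test that the stretch is low.

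Acetylation of lysine 56 of histone H3 was measured by ChIP-chip, in which immunoprecipitated chromatin is hybridised to an array of genomic tiles, in untreated seedlings of the col-0 ecotype. The seedlings were labelled as 10 days old and were kept in liquid culture at 22 °C under a photoperiod of 16 hours. Preparations I and II, called 1 and 2 here, were each hybridised to 2 arrays, with immunoprecipitated (IP) DNA in Cy5 and input DNA in Cy3 on one and the dyes exchanged on the other. There was a single group, with no mutant, treatment or time course, and IP DNA was compared with input DNA on each array. The 2 arrays of a preparation carried identical deposited values at all 21707 tiles, so n = 2 preparations throughout. Whole seedlings mix many cell types, and a level is an average over them.

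Lysine 56 lies in the globular core of histone H3, close to where DNA enters and leaves the nucleosome. In budding yeast the residue is acetylated on newly made H3 by Rtt109 and marks chromatin assembled behind the replication fork. In Arabidopsis the mark is known from transcribed genes, together with other marks of active chromatin, while the condensed chromatin around centromeres is poor in histone acetylation. The tiles' genome positions were not used here, so the results are by tile ID, without genes, coordinates or sequences.

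Values are log ratios of the 2 channels as deposited, minus the median of all tiles in each preparation. A value of 0 is thus the array median and not an absence of H3K56ac. The sources used here state neither the log base nor the numerator of the ratio. High and low therefore refer to the deposited ratio, and a difference of 1 is called 1 log unit. Across plates 37 to 51 the median was −0.739 in preparation 1 and −0.685 in preparation 2, which is −0.71 ± 0.0380 (mean ± SD, n = 2). In the 20356 other tiles it was 0.0487 in preparation 1 and 0.0401 in preparation 2. Below the array median in both preparations lay 1229 of the 1351 tiles (91.0%), where the share over all tiles was 42.8%. By limma on the whole table at an adjusted p of 0.05, 1181 tiles (87.4%) were called below the array median, and the share of all 21707 tiles so called was 30.9%. Those counts follow from how the plates were chosen.

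**Figure D1:**
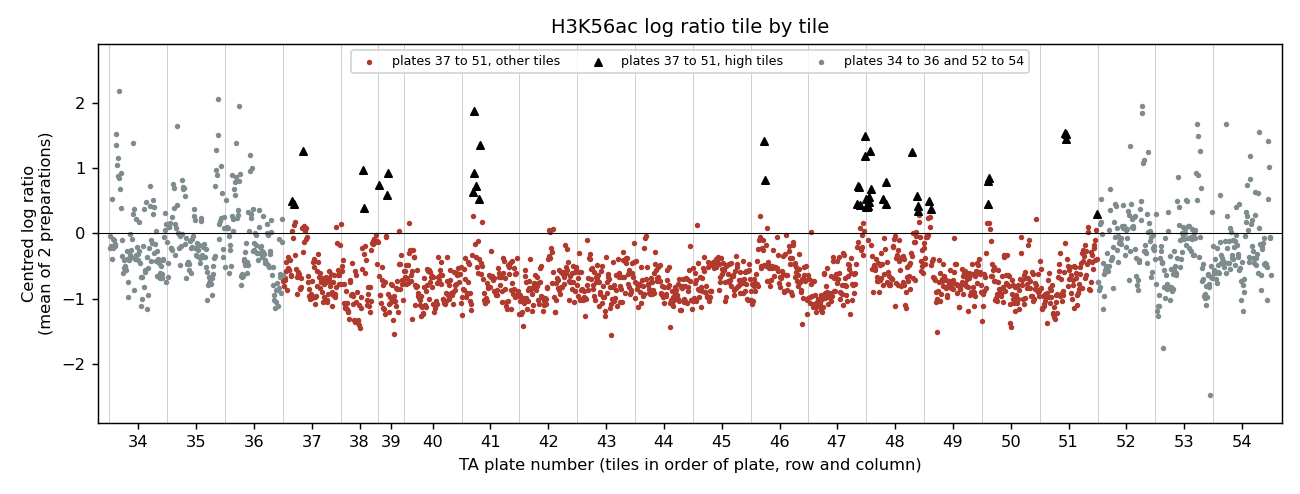
Mean centred log ratio of each tile over 2 preparations (y axis, log units) in order of plate, row and column for TA plates 34 to 54 (x axis). Tiles of plates 37 to 51 are red, with the 46 high tiles as black triangles, and tiles of the 3 plates on either side are grey. The red tiles form a band around −0.71, with the black triangles in a few places and none between TA41C08 and TA46B10.

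The level was much the same from plate to plate. Plate levels (the mean of the 2 preparation medians) lay between −0.843 (plate 44) and −0.437 (plate 48), with plate 46 next highest at −0.601. The SD of the 15 levels was 0.103, and 0.0691 without plate 48. The SD between preparations for a single plate had a median of 0.0490, and ran from 0.00404 in plate 50 to 0.138 in plate 40. It describes single preparations, and a level, as a mean of 2, has a smaller error. It is therefore not directly comparable with the SD of the levels. Plate 44 had medians of −0.847 in preparation 1 and −0.839 in preparation 2. Plate 48 had medians of −0.501 in preparation 1 and −0.372 in preparation 2. In both preparations plate 48 was the highest of the 15.

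The order of the other plates was not the same in both preparations. Plate 40 had a median of −0.861 in preparation 1 and −0.666 in preparation 2. Plate 47 differed the other way, with −0.699 in preparation 1 and −0.849 in preparation 2. Preparation 1 had the higher median in 5 of the 15 plates, and the difference (preparation 1 minus preparation 2) ran from −0.196 to 0.151. Across the 15 plates the medians of both preparations correlated at 0.669, and at 0.339 over the 14 plates without plate 48. These are descriptions over plates that share the same 2 preparations. Plate 46 was the next highest after plate 48 in both preparations, with −0.649 in preparation 1 and −0.552 in preparation 2. The plates after it were close, at −0.684 (plate 51) in preparation 1 and −0.588 (plate 45) in preparation 2. Below plates 48 and 46, a ranking of these plates is thus not carried by the data.

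**Figure D2:**
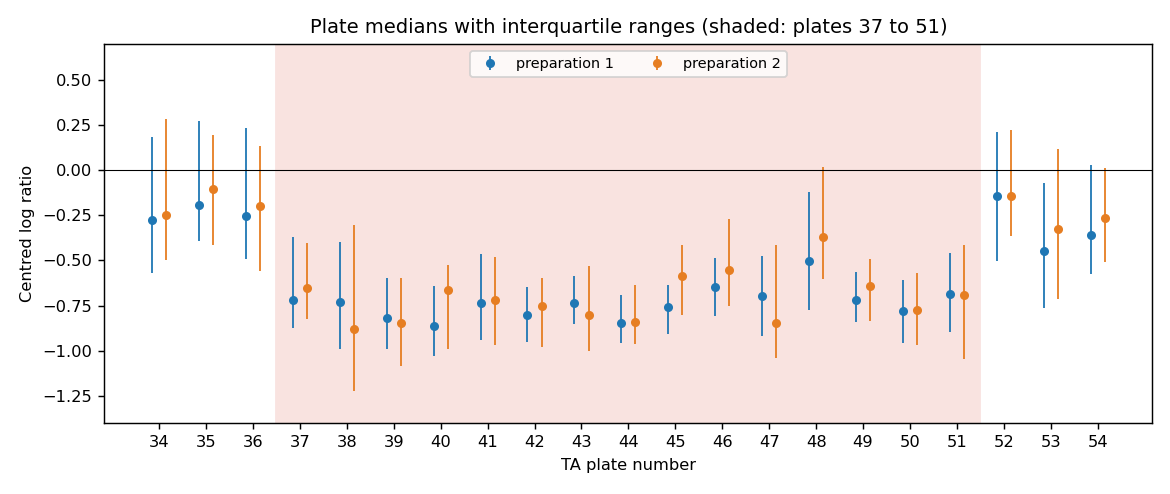
Plate medians (points) and interquartile ranges (bars) of the centred log ratio (y axis, log units) in preparations 1 and 2 for TA plates 34 to 54 (x axis), with plates 37 to 51 shaded. The shaded medians lie between −0.88 and −0.37 in both preparations, and plates 36 and 52 next to them lie between −0.251 and −0.144.

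At the finer scale of 12-well rows the stretch was still low nearly throughout. Of its rows, 113 had 6 or more tiles. In 94 of these the median was below −0.4 in both preparations, and in 13 it was above −0.4 in both. The median row level was −0.72. Only 2 rows had a median above 0 in both preparations, and they adjoin each other in ID order. Row A of plate 48 had medians of 0.387 in preparation 1 and 0.302 in preparation 2. Row H of plate 47, directly before it, had 0.00435 in preparation 1 and 0.249 in preparation 2. The lowest row, B of plate 47, had −0.926 in preparation 1 and −1.20 in preparation 2, so plate 47 held both the lowest row and one of the 2 highest. The row medians of both preparations correlated at 0.847 over the 113 rows, given as a description of rows measured in the same 2 preparations.

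Tiles within a plate of the stretch lay close together. The interquartile range within a plate had a median over the 15 plates of 0.389 log units in preparation 1 and 0.470 in preparation 2. Over the plates of all other tiles it was 0.771 in preparation 1 and 0.729 in preparation 2. With both preparations averaged per tile, it ran from 0.262 in plate 44 to 0.759 in plate 38. Of the 15 plates, 14 were narrower than the median of 0.737 over the 214 other plates with 40 or more tiles. Of those 214 plates, 9 were as narrow as 0.394, the median of the 15, and 7 of the 9 belonged to TC plates 17 to 29, which are also low. None of the 9 was among TA plates 21 to 28, another low stretch, whose narrowest plate had 0.401 and whose median was 0.617. Across the 214 plates, level and interquartile range correlated at 0.526, so lower plates were in general narrower.

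The smaller spread did not come with a smaller replicate error. The difference between preparations had an SD of 0.263 log units over the tiles of the stretch and 0.269 over all other tiles. The SD of the tile means was 0.415 in the stretch and 0.640 elsewhere. Replicate differences of that size give a tile mean an SD of 0.131 in the stretch and 0.135 elsewhere. Within 0.25 log units of the plate median lay 61.0% of the tiles of the stretch and 39.3% of all other tiles. Replicates differed by more than 0.5 log units at 95 tiles of the stretch (7.03%) and at 6.53% of the others. The largest such difference was at TA38D09, with −0.390 in preparation 1 and −1.26 in preparation 2.

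The spread was lopsided. The 5th percentile lay 0.417 log units below the median of the tile means and the 95th percentile 0.803 above it. In all other tiles these distances were 0.849 and 1.29. The skewness of the tile means was 1.80 in the stretch and 0.522 elsewhere, and without the high tiles described below it was 0.533 in the stretch. With all their tiles, the other low stretches were lopsided as well, with a skewness of 1.37 in TA plates 21 to 28 and 1.21 in TC plates 17 to 29. Pearson's r between preparations was 0.824 over the 1351 tiles (Spearman's rho 0.713), and 0.716 (rho 0.682) over the 1305 tiles left without the high ones. In all other tiles r was 0.915, over a wider range of levels. These correlations are across tiles of the same 2 preparations.

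**Figure D3:**
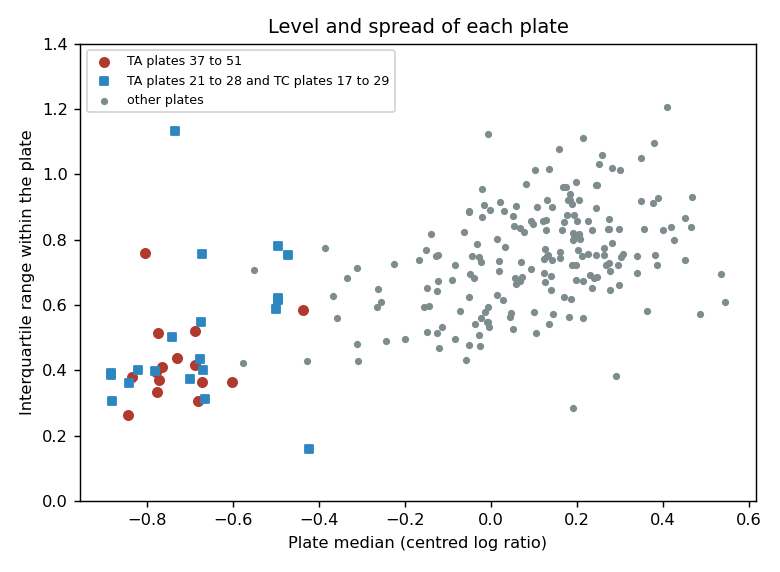
Interquartile range of the tile means within a plate (y axis, log units) against the plate level (x axis, centred log ratio), 1 point for each of 229 plates with 40 or more tiles. TA plates 37 to 51 (red) lie at the left, between 0.262 and 0.759, and the plates of TA 21 to 28 and TC 17 to 29 (blue squares) lie at similar levels with ranges between 0.159 and 1.13.

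Tiles that stood out upwards were rare. A high tile is one that limma called above the array median and that lay above it in both preparations. There were 46 of them (3.40%). Over all tiles 33.3% were called above the median, and 33.2% were high tiles by this definition. The call was close to a fixed cutoff, since the smallest mean that passed was 0.281. Just inside it was TA51H11, with 0.205 in preparation 1 and 0.379 in preparation 2. Just outside was TA48H05, with 0.257 in preparation 1 and 0.295 in preparation 2. A further 37 tiles had a mean above 0 and were not called. The 46 means ran from 0.292 to 1.88 with a median of 0.655. At 0.5 log units or more in both preparations there were 24 tiles, where the share over all tiles was 20.5%. At 1 log unit or more in both there were 11 (0.814%, against 8.56% over all tiles).

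The tiles at 1 log unit or more were high in both preparations, and their replicates lay close together against their distance from the plate. The highest was TA41B10, with 1.80 in preparation 1 and 1.96 in preparation 2. Its mean of 1.88 stood 2.57 above −0.693, the median of the tile means of its plate. TA41C07, 9 tiles further on, had 1.47 in preparation 1 and 1.24 in preparation 2.

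Plate 51 held the most compact group of such tiles. TA51D07 had 1.62 in preparation 1 and 1.45 in preparation 2. TA51D08 had 1.49 in preparation 1 and 1.54 in preparation 2. TA51D09 had 1.57 in preparation 1 and 1.32 in preparation 2. The tile before these 3 had a mean of −0.142 and the tile after them −0.39, so the ratio crossed more than 1.5 log units from one tile to the next on both sides.

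Further tiles of this height lay at a plate change. TA47H10 had 1.25 in preparation 1 and 1.13 in preparation 2. TA47H11 had 1.53 in preparation 1 and 1.44 in preparation 2. TA48A07, 8 tiles after it, had 1.25 in preparation 1 and 1.29 in preparation 2. Between TA47H11 and TA48A07 the run of IDs passes from one plate to the next without a drop to the level of either plate.

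The remaining tiles of this height were in 3 separate places. TA46B11 had 1.45 in preparation 1 and 1.37 in preparation 2, and the tile after it had a mean of 0.82. TA48G05 had 1.35 in preparation 1 and 1.15 in preparation 2, between tiles with means of −0.341 and −0.684. TA37C10 had 1.18 in preparation 1 and 1.34 in preparation 2, between tiles at −0.281 and 0.112. TA48G05 and TA37C10 were thus single high tiles, with no other high tile beside them.

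**Figure D4:**
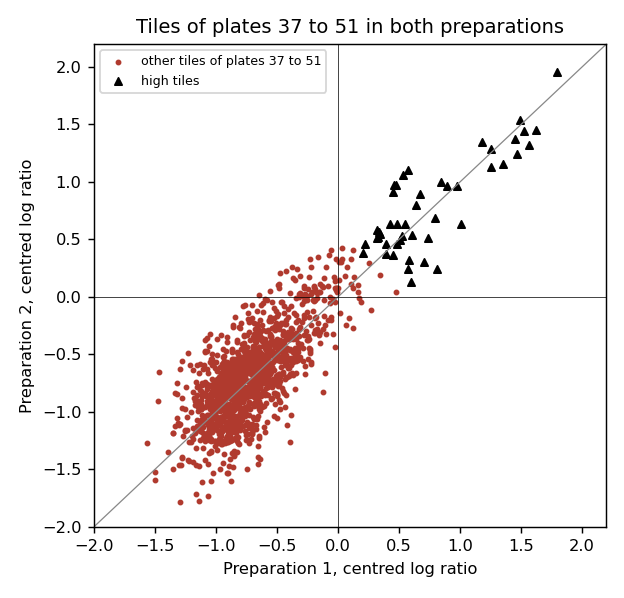
Centred log ratio of each of the 1351 tiles in preparation 1 (x axis) and preparation 2 (y axis), in log units, with the line of equal values. The 46 high tiles (black triangles) extend along the line up to 1.80 and 1.96, while the other tiles (red) form 1 cloud around −0.739 and −0.685.

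High tiles were grouped more often than single when counted by tile, and evenly split when counted by run. In ID order the 46 tiles formed 24 runs. Of these, 12 were single tiles, 6 had 2 tiles, 4 had 3, 1 had 4 and 1 had 6. The runs of 2 or more thus held 34 of the 46. In all other tiles 7159 high tiles formed 2617 runs, of which 34.4% were single. Single tiles made up 12.6% of the high tiles there against 26.1% in the stretch. That share was not particular to the stretch. It was 26.7% in TA plates 21 to 28, 43.8% in TC plates 17 to 29 and 27.8% in TA plates 52 to 60. In TA plates 29 to 36 it was lower, at 16.5%. The share of high tiles differed as well, at 3.40% in the stretch and 35.2% elsewhere, and no test of the run lengths was made.

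Many of the single tiles had another high tile within a few wells. When high tiles with at most 5 other tiles between them were counted as 1 cluster, a distance chosen after the values were seen, there were 16 clusters. Of these, 4 consisted of 1 high tile, and 7 clusters of 3 or more held 32 of the 46. The largest ran from TA47H10 to TA48A08 and held 10 high tiles among 11 tiles. The 6-tile run from TA47H10 to TA48A03 and the 4-tile run from TA48A05 to TA48A08 are separated in it by 1 tile at −0.104. With the 4 high tiles of TA47G10 to TA47H02 just before, 14 of 23 tiles were high from TA47G10 to TA48A08. Plates 47 and 48 together held 21 of the 46 high tiles in 192 tiles.

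The second large cluster was in plate 41, from TA41B07 to TA41C07. Its 13 tiles held 6 high ones, and the lowest tile between them had a mean of −0.603. Its highest tiles, TA41B10 and TA41C07, were each the end of a run of 2, and both were followed directly by a tile below the median, at −0.164 and −0.449. This cluster was thus made of separate narrow peaks, whereas the one across plates 47 and 48 was nearly continuous.

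The other 3 runs of 2 tiles had highest means below 1 log unit. The run of 2 at TA38D01 had 0.974 in preparation 1 and 0.962 in preparation 2 at its highest tile. TA39C10, the highest of another run of 2, had 0.842 in preparation 1 and 0.9996 in preparation 2. TA48C10, also in a run of 2, had 0.669 in preparation 1 and 0.891 in preparation 2. In these 3 the preparations differed by less than 0.25.

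Runs of 3 began at TA47G12, TA48H01 and TA50A10, besides the one in plate 51. TA47G12 had 0.479 in preparation 1 and 0.971 in preparation 2. TA48H01 had 0.604 in preparation 1 and 0.539 in preparation 2. TA50A12, the highest tile of the run in plate 50, had 0.577 in preparation 1 and 1.11 in preparation 2. The heights at TA47G12 and TA50A12 differed between preparations by about as much as the lower of the 2 values, so their size is uncertain.

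**Figure D5:**
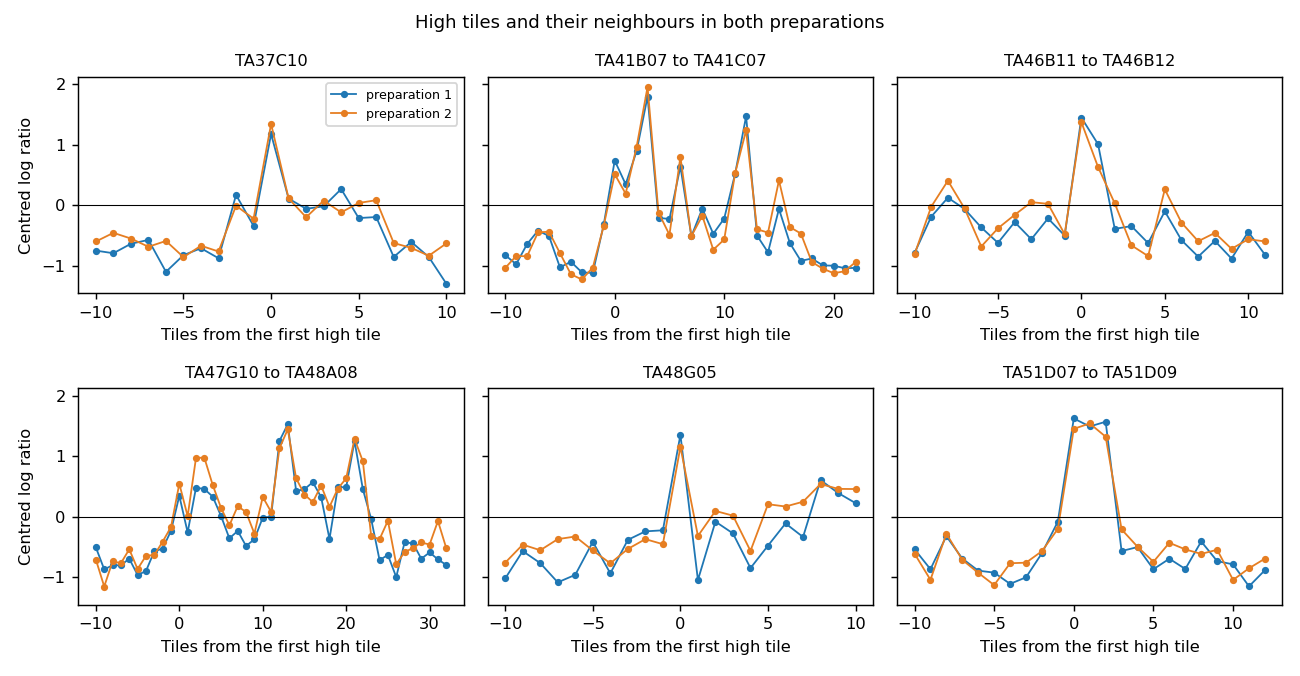
Centred log ratio (y axis, log units) in preparations 1 and 2 at the high tiles of 6 places and at the 10 tiles on either side, in ID order from the first high tile (x axis). TA37C10 and TA48G05 are single tiles, TA51D07 to TA51D09 form a block of 3 that reaches 1.62, and TA47G10 to TA48A08 stay mostly above 0 for 23 tiles.

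High tiles faded into the surrounding level within a few wells. To avoid reading a tile in the measurement that picked it, tiles at 0.5 or more in preparation 1 were chosen and preparation 2 was read around them. Each tile was counted only at its distance from the nearest chosen tile. Neighbours that were themselves chosen are thus left out of the distances of 1 well or more. Part of the drop beside the chosen tiles is therefore set by the counting. The 30 chosen tiles had a median of 0.964 in preparation 2. Tiles directly next to them had a median of 0.00416 (43 tiles), those 2 wells away −0.185, those 3 away −0.433 and those 5 away −0.612. More than 10 wells away the median was −0.745 (1046 tiles). With the preparations exchanged, the 34 chosen tiles had a median of 0.704 in preparation 1, and the medians were −0.225 at 1 well, −0.415 at 2, −0.520 at 3 and −0.712 at 5, with −0.763 beyond 10. Both readings went down over the first 5 wells, and the nearest neighbours stood higher when the tiles were picked in preparation 1.

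Values of neighbouring tiles were alike, also when the high tiles themselves were left out. The tile means of neighbours correlated at 0.635 over the 1350 pairs of the stretch, at 0.471 for tiles 2 apart and at 0.119 for tiles 10 apart. With preparation 1 at a tile set against preparation 2 at the next, the correlation was 0.550 in the stretch and 0.548 in all other tiles. In the stretch without its 46 high tiles it was 0.411, over 1304 pairs. There the raised tiles beside the high ones stayed in, and tiles on both sides of a removed tile counted as neighbours. The likeness far from high tiles was thus not measured separately. These are correlations across tiles, which share libraries and neighbours, and they are given without a test.

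Between the plates with high tiles lay a long part without any. High tiles were found in 10 of the 15 plates, and plates 40, 42, 43, 44 and 45 had none. From TA41C08 to TA46B10 there were 471 consecutive tiles without a high one. Their median was −0.777 in preparation 1 and −0.743 in preparation 2. Of these tiles, 449 (95.3%) were called below the array median, where the share was 87.4% in the whole stretch and 30.9% over all tiles. This part was picked for holding no high tile, which by itself raises the share called below. In it 6 tiles had a mean above 0, the highest being TA46B03 at 0.266. The SD of the tile means was 0.266, against the 0.124 that the replicate differences alone give. The tiles of this part therefore still differed from each other by more than the replicate error, and their preparations correlated at 0.653.

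Unbroken runs below the median were long. The longest run of tiles below the array median in both preparations had 111 tiles, from TA41C11 to TA42E01. The next had 104 tiles, from TA40A11 to TA41B06, and 103, from TA45A08 to TA46B02. Runs of 50 or more tiles numbered 8 and held 681 of the 1351 tiles. Long runs follow from the choice of plates, since 91.0% of the tiles lay below the median in both preparations. In TC plates 17 to 29 that share was 93.5%, and over all tiles 42.8%. Run lengths outside the stretch are not given here.

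The lower tail was short by comparison. A mean of −1 or less was found at 222 tiles (16.4%), with 3.07% over all tiles, and 106 tiles were at −1 or less in both preparations (1.48% over all tiles). The lowest tile was TA43E09, with −1.50 in preparation 1 and −1.60 in preparation 2. TA39D09 followed, with −1.30 in preparation 1 and −1.78 in preparation 2. TA49B10 had −1.50 in preparation 1 and −1.52 in preparation 2. These lie far above the lowest tile outside the stretch, which had a mean of −2.81, so the stretch held many low tiles but not the extreme ones. This was not particular to the stretch. In TC plates 17 to 29, 21.9% of the tiles had a mean of −1 or less, and the lowest mean was −1.55. In TA plates 21 to 28 the share was 14.7% and the lowest mean −1.87. The 222 tiles formed 134 runs, 85 of them single, and the longest had 6 tiles.

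Plates 38 and 39 were incomplete, and plate 38 was the widest of the 15, with an interquartile range of 0.759 for the tile means, while that of plate 39 was 0.380. Within plate 38 the rows differed in level. Rows G and H, with 6 tiles each, had levels of −0.135 and −0.136, while rows A, B and C had −0.979, −0.973 and −1.05. Of the 1440 wells of the 15 plates, 88 had no ID in the table used here, 34 of them in plate 38 and 54 in plate 39. The 104 tiles of these plates had medians of −0.793 in preparation 1 and −0.863 in preparation 2, with an interquartile range of 0.612 when both were pooled. Those of the other 13 plates had medians of −0.736 in preparation 1 and −0.672 in preparation 2, with a pooled range of 0.414. A mean of −1 or less was found at 35.6% of the tiles in plates 38 and 39 and at 14.8% in the other 13. Tiles with neighbouring IDs may lie further apart where wells are not listed, and the part this plays in the values was not tested.

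The low level did not end where plates 37 and 51 end. Plate 37 had a level of −0.687 and plate 36 before it −0.225. Plate 51 had a level of −0.689 and plate 52 after it −0.144. By rows there was no single step at the plate border, and rows further out went up and down. The first 12 tiles of plate 37 had medians of −0.572 in preparation 1 and −0.557 in preparation 2, and the last 12 of plate 36 were lower still, at −0.819 in preparation 1 and −0.684 in preparation 2. Levels in plate 36 were 0.0461 in row A, 0.584 in B, −0.539 in C and 0.208 in D. They then fell, with −0.189 in E, −0.282 in F, −0.597 in G and −0.752 in H. The last high tile before the stretch was TA36E08, with 40 tiles between it and TA37A01.

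The other end was similar. The last 12 tiles of plate 51 had medians of −0.386 in preparation 1 and −0.221 in preparation 2. The first 12 of plate 52 had −0.619 in preparation 1 and −0.704 in preparation 2. Row levels in plate 52 were −0.662 in row A, −0.435 in B, −0.157 in C and 0.0158 in D. They then alternated, with 0.152 in E, −0.386 in F, 0.157 in G and −0.186 in H. Rows A, B and C of plate 53 were low again, at −0.624, −0.646 and −0.625. At the tile level, TA37A01 had −0.809 in preparation 1 and −0.647 in preparation 2, and TA36H12 before it had −0.502 in preparation 1 and −0.780 in preparation 2. TA51H12 had −0.243 in preparation 1 and −0.544 in preparation 2, and TA52A01 after it had −0.615 in preparation 1 and −0.889 in preparation 2. The low level thus went on into the 2 nearest rows of the adjoining plate on both sides, at levels of −0.435 or lower.

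Set beside the 2 other low stretches, which were also picked for their medians, plates 37 to 51 had about the level of TC plates 17 to 29. Levels were −0.71 ± 0.0380 in TA plates 37 to 51, −0.75 ± 0.0502 in TC plates 17 to 29 and −0.58 ± 0.0687 in TA plates 21 to 28 (mean ± SD of the preparation medians, n = 2 each). High tiles made up 3.40% in TA plates 37 to 51, 1.495% in TC plates 17 to 29 and 10.5% in TA plates 21 to 28. A height of 1 log unit or more in both preparations was reached by 11 of 1351 tiles in TA plates 37 to 51, by 1 of 1070 in TC plates 17 to 29 and by 22 of 713 in TA plates 21 to 28. Counted from the median of each tile's own plate, tiles at 1 log unit or more in both preparations were 31 (2.29%) in TA plates 37 to 51, 1.31% in TC plates 17 to 29 and 7.01% in TA plates 21 to 28, with 6.29% over all tiles. The 3 stretches were measured on the same arrays, and no test of these differences was made, since each was chosen on the values compared.

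The TA plates on either side had higher tiles as well as a higher level. High tiles were 3.40% of the stretch, against 23.6% of the 746 tiles in plates 29 to 36 and 16.9% of the 850 tiles in plates 52 to 60. Tiles with a mean of −1 or less were 16.4% of the stretch, against 1.07% in plates 29 to 36 and 3.65% in plates 52 to 60. The lowest tiles of both flanks overlapped the stretch, whose 75th percentile was −0.499. In plates 52 to 60 the 25th percentile was −0.600, below that value. In plates 29 to 36 the 25th percentile was −0.427, above it, and the 5th percentile was −0.785, so the overlap there was smaller.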

How the data were processed

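The deposited table holds, per its description, 1 column of the authors' processed log ratios of IP and input DNA for each of 4 arrays. Its 21800 rows include 21761 tiles, of which 21707 have a value. Normalization, software, log base and numerator are stated in none of the sources used here. Each pair of identical columns was taken as 1 value per preparation, and the median over all tiles (−0.737 in preparation 1 and −0.925 in preparation 2 as deposited) was taken off. The mean of every tile was compared with 0 by limma (version 3.58.1, R version 4.3.3; an intercept fit, moderated by eBayes, two-sided), with Benjamini-Hochberg adjustment and a threshold of 0.05. The same fit was first tested on simulated data. The prior carried 134 degrees of freedom and a tile 1, so a call is close to a cutoff on the mean. Other values were computed with Python 3.11.15, numpy 2.4.6 and pandas 2.3.3. Neighbours are tiles that follow each other in plate, row and column.

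The members, rules and thresholds were chosen with earlier results of these data known. Named tiles were all tiles of the stretch with a mean of 1 or more, the highest tile of each run of 2 or more high tiles, the 3 lowest tiles, the tiles at both ends and the tile with the largest difference between preparations. Tiles named besides these were chosen after their values were seen. The labels do not say whether the preparations came from separate cultures, so SDs and calls cover the spread between these 2 preparations, which may be technical, and the number of arrays limits the precision.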

Additional observations from a re-analysis of the deposited data

How the results depend on the processing

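Of 35 recomputed values, 29 stayed within the limits used (1 SD between preparations for a level or spread, 1.5 times for a count) and 6 moved. For the level and the interquartile range, leaving out 1 of the 2 preparations always stays within 1 SD. Those recomputed values could not have moved and say nothing about stability. With values as deposited, the level of the stretch was −1.54 and 11 tiles were called above 0. With each preparation centred on its mode, the level was −0.46 and 73 tiles were called above. Both follow from the shift of the zero point by a constant, and the order of tiles does not change. A bound of 0.5 log units in both preparations left 24 high tiles in 16 runs, 9 of them single. The scaled median absolute deviation within plates was 0.301, on another scale than the interquartile range of 0.430. Without 1 preparation the level ranged from −0.739 to −0.685, the interquartile range from 0.389 to 0.470, tiles at −1 or less from 216 to 271 and tiles past 0.281 from 46 to 55. Without plate 48, an alternative chosen after seeing the data, 32 high tiles in 19 runs were left. limma could not be run on 1 preparation, since no residual degrees of freedom remain. No paired analysis was possible because there is 1 group.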

Other observations

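High tiles were unevenly placed by the row letter of their plates. Row A held 13 of the 46, rows C and H held 9 each, and none lay in row E or F. In all other tiles the share of high tiles was 35.1% in row E and 36.2% in row F, and it was between 34.5% and 36.2% in every row from A to H. Of those in row A, 7 belong to plate 48 alone, and of those in row H, 5 belong to plate 47 and 3 to plate 48. Since the 46 tiles formed 24 runs, the counts by row rest on few separate places. The part of the place on the plate in these values was not tested.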
